A study of Mus musculus with 5 samples.

Results

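T cells of mouse mammary tumours were described from 377 cells that carried CD3 transcripts, out of 15958 deposited cells in 5 single-cell RNA libraries. A cell was taken as a T cell when the raw unique molecular identifiers (UMIs, counts of captured molecules) of Cd3d, Cd3e and Cd3g summed to at least 2. Its C1qa, C1qb and C1qc also had to stay under 10 UMIs per 10000 of its total, and its Krt8, Krt18 and Epcam under 15 UMIs per 10000, which kept out macrophages and tumour epithelium. These transcripts chose the cells, and their levels below are a description only. The tumours came from PyMT mice, in which polyoma middle T antigen drives mammary tumours, and the study compared capture platforms on this tissue. Tumours were digested and enriched for viable cells. The labels give neither the promoter of the transgene, the strain, the age nor the number of mice, and nothing says that the libraries came from separate animals. P-values therefore measure only the spread between these libraries, which may be technical.

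Fresh 10x 1 and fresh 10x 2 are the 2 fresh tumour samples run on the 10x Genomics 3' v2 droplet system. Stored 10x is the 1 sample titled 24 h on the same system, from a digest kept overnight at 4 °C until viability had dropped by at least 20%. BD 1 is a fresh sample on the BD Rhapsody microwell system with its whole transcriptome assay. BD 2 is titled as fresh on that system but its deposited files are named for 24 h, so it was kept apart and given no storage state. All 5 share the tumour model, and no tumour-free tissue was analysed here. The libraries held at most 4186 cells each and from 29166129 to 59957945 UMIs. The libraries shared 31 barcodes in 4 pairs, of which 0 had identical counts and 0 were T cells.

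T cells recognise peptide or lipid antigens through a receptor of alpha and beta chains, or through one of gamma and delta chains, and every such receptor needs the CD3 chains to reach the surface and to signal. The coreceptor CD8 binds MHC class I and marks cells that kill with granzymes, and CD4 binds MHC class II and marks helper and regulatory cells, the latter defined by the factor Foxp3. Natural killer (NK) cells share granzymes and many receptors with killer T cells but make no functional T cell receptor. In mouse mammary tumours these lymphocytes lie among tumour cells and other immune cells.

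Among the genes that differed between CD8 and CD4 cells below were granzyme genes on one side and regulatory genes on the other. The bases just upstream of the start of genes of each kind are shown because these genes are described in detail below. They are 250 bases before the start in RefSeq on GRCm38.p6, 5′ to 3′ on the strand of the gene, and capitals mark the hexamer TGTGGT or its reverse complement ACCACA, the core bound by RUNX factors. Gzma lies at chr13:113100982-113101231 on the minus strand, Gzmb at chr14:56262335-56262584 on the minus strand, Tnfrsf4 at chr4:156013445-156013694 on the plus strand and Ctla4 at chr1:60908775-60909024 on the plus strand.
Gzma: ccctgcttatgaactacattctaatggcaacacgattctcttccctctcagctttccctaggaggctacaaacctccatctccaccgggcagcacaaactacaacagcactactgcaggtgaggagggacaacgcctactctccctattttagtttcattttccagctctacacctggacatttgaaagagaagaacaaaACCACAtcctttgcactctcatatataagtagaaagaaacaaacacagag
Gzmb: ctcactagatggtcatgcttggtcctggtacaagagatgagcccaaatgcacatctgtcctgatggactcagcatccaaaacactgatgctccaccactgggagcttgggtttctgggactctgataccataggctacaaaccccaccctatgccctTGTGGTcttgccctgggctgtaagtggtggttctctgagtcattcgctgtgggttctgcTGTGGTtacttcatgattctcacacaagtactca
Tnfrsf4: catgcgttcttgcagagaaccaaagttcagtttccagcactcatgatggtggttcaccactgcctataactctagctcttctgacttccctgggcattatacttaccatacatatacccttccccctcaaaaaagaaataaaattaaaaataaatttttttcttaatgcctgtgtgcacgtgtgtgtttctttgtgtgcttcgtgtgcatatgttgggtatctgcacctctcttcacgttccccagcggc
Ctla4: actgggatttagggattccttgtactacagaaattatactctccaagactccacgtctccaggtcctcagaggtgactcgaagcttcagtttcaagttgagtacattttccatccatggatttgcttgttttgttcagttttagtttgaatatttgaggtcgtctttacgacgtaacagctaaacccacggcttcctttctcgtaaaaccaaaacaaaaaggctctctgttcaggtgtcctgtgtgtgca

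The Gzma window held 1 match and the Gzmb window 2, while the Tnfrsf4 and Ctla4 windows held 0. The windows of Fcer1g, also higher in CD8 cells, and of Gm2a, higher in CD4 cells, were read too and both held 0. Among all 32851 promoters of the table, 4614 (14.0%) held the hexamer on either strand within 250 bases. It was in 12 of the 45 promoters found for genes higher in CD8 cells (26.7%) and in 3 of the 57 found for genes higher in CD4 cells (5.26%). These are counts of letters, given without a test, and RUNX binding was not measured.

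T cells were a small share of every library. Fresh 10x 1 held 59 T cells, 2.84% of its cells (exact 95% binomial interval 2.17 to 3.65), and fresh 10x 2 held 23 (1.19%, 0.759 to 1.79). Stored 10x held 88 (2.20%, 1.77 to 2.70), BD 1 held 84 (2.23%, 1.78 to 2.75) and BD 2 held 123 (2.94%, 2.45 to 3.50). The 2 fresh 10x samples, which are replicates by title, had intervals that did not overlap, and the stored 10x and BD 1 shares lay between them. In a pooled deposition of these 2 samples, with partly different cells, the intervals did overlap. The shares there were 2.74% (2.09 to 3.54) and 1.46% (0.970 to 2.10). With every cell thinned to 1000 UMIs, and cells under that depth left out, the shares were 2.35%, 0.991%, 1.65%, 1.33% and 1.94% in the same order. Within BD 1 the share itself varied, at 1.47% (20 T cells) and 3.05% (52 T cells) in its 2 deposited subsets and 1.69% (12 T cells) in the other 710 cells. Intervals cover counting error only.

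**Figure D1:**
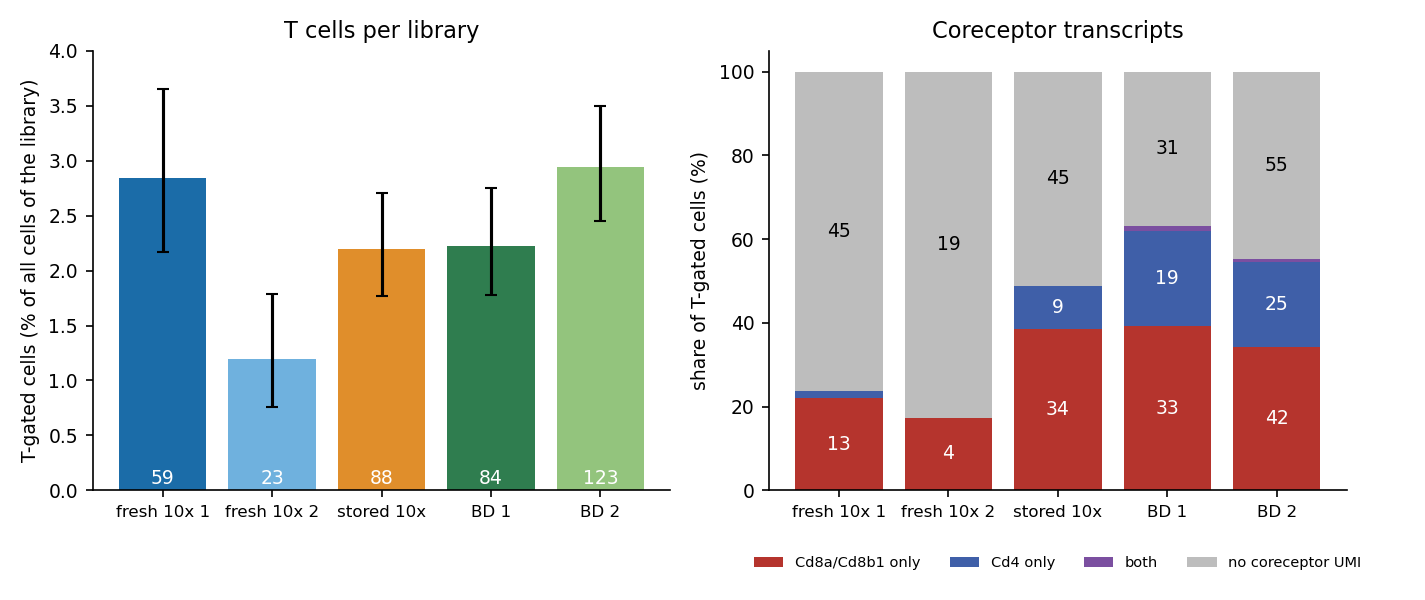
Left, T cells as a percent of all cells in each library, bars with exact 95% binomial intervals. Right, the percent of T cells with Cd8a or Cd8b1, with Cd4, with both or with neither, stacked for each library. Fresh 10x 2 has the lowest T cell share at 1.19%, and cells with neither coreceptor range from 36.9% in BD 1 to 82.6% in fresh 10x 2.

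The T cells were shallow. The median T cell of fresh 10x 1 had 3243 UMIs, that of fresh 10x 2 had 3762 and that of stored 10x 2406.5, while BD 1 reached 5436 and BD 2 4669, and epithelial-gated cells had medians of 10870.5 to 13673. The median mitochondrial share of T cells was 5.23%, 4.68%, 4.97%, 9.53% and 11.2% in that order, in each library below the median of all its cells (6.14%, 6.99%, 7.17%, 15.2% and 19.8%).

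The label was checked against receptor genes that the rule did not use. Trac, Trbc1 or Trbc2, the constant regions of the alpha and beta chains, had a UMI in 365 of the 377 cells (96.8%, 94.5 to 98.3), and the share per library ran from 94.3% in stored 10x to 100% in fresh 10x 2. The same transcripts had a UMI in 0.909% to 2.54% of epithelial-gated cells, although those are deeper. They did not part T cells from the NK-gated cells described later, where Trac, Trbc1 or Trbc2 had a UMI in 37 of 39 cells (94.9%, 82.7 to 99.4), mostly through Trbc1, in 36 of 39, against 213 of 377 T cells. Trac alone had a UMI in 244 of the 377 T cells (64.7%, 59.7 to 69.5) and in 2 of the 39 NK-gated cells (5.13%, 0.627 to 17.3). Among cells within the other limits, Trac or Trbc was found in 4.43% of 3969 cells with 0 CD3 UMIs, 36.4% of 55 with 1, 89.3% of 28 with 2, 95.5% of 22 with 3 and 95.2% of 21 with 4. The epithelial limit left out 40 cells with CD3 and had 31 T cells between 7.5 and 15 UMIs per 10000 below it. The C1q limit left out 19 cells and had 0 T cells between 5 and 10.

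The CD3 genes lie side by side on chromosome 9 (GRCm38.p6, Cd3g at chr9:44969572-44980431, Cd3d at chr9:44981769-44987052 and Cd3e at chr9:44998735-45009663), and each platform reported them in its own proportion. Cd3e stood at 4.44, 5.03 and 6.59 UMIs per 10000 in the T cells of fresh 10x 1, fresh 10x 2 and stored 10x, and at 14.0 and 13.1 in BD 1 and BD 2. Cd3g stood at 27.1, 26.1 and 23.0 in the 10x libraries and at 10.2 and 10.5 on BD Rhapsody. In these cells, which the CD3 genes themselves chose, the 10x libraries stood higher in Cd3g and lower in Cd3e than both BD libraries. Of the 377 cells, 33 entered through Cd3g alone.

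Most T cells with a coreceptor UMI were CD8 cells, by a count that sets 2 CD8 genes against Cd4 alone. How well these genes are captured relative to each other was not tested. Cd8a and Cd8b1 (chr6:71373427-71379171 and chr6:71322788-71337492) encode the chains of CD8, and Cd4 lies at chr6:124864693-124888247. A UMI of Cd8a or Cd8b1 without Cd4 was found in 126 cells, called CD8 cells here, Cd4 without either in 54, both in 2, and none of these in 195, called coreceptor-negative. Fresh 10x 1 held 13 CD8 cells and 1 CD4 cell, fresh 10x 2 held 4 and 0, stored 10x 34 and 9, BD 1 33 and 19, and BD 2 42 and 25. CD8 cells were thus 92.9% of the cells with 1 coreceptor (exact 95% interval 66.1 to 99.8) in fresh 10x 1 and 100% (39.8 to 100) in fresh 10x 2. The share was 79.1% (64.0 to 90.0) in stored 10x, 63.5% (49.0 to 76.4) for BD 1 and 62.7% (50.01 to 74.2) for BD 2.

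With each T cell thinned to 1000 UMIs the CD8 shares were 100%, 100%, 85.7%, 72.2% and 65.9% in the same order. Cd4 had a UMI in 1 of 59 and 0 of 23 T cells of the fresh 10x samples, in 9 of 88 of stored 10x, in 20 of 84 of BD 1 (23.8%, or 11.9% thinned) and in 26 of 123 of BD 2 (21.1%, or 11.4% thinned). The 0 of 23 allows a share of up to 14.8%. In epithelial-gated cells Cd4 was found in at most 0.396% of cells and Cd8a or Cd8b1 in at most 0.418%. A missing coreceptor UMI at these depths does not show a cell without the coreceptor. The cells with Foxp3 in the fresh 10x samples, 2 and 1, were all coreceptor-negative.

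**Figure D2:**
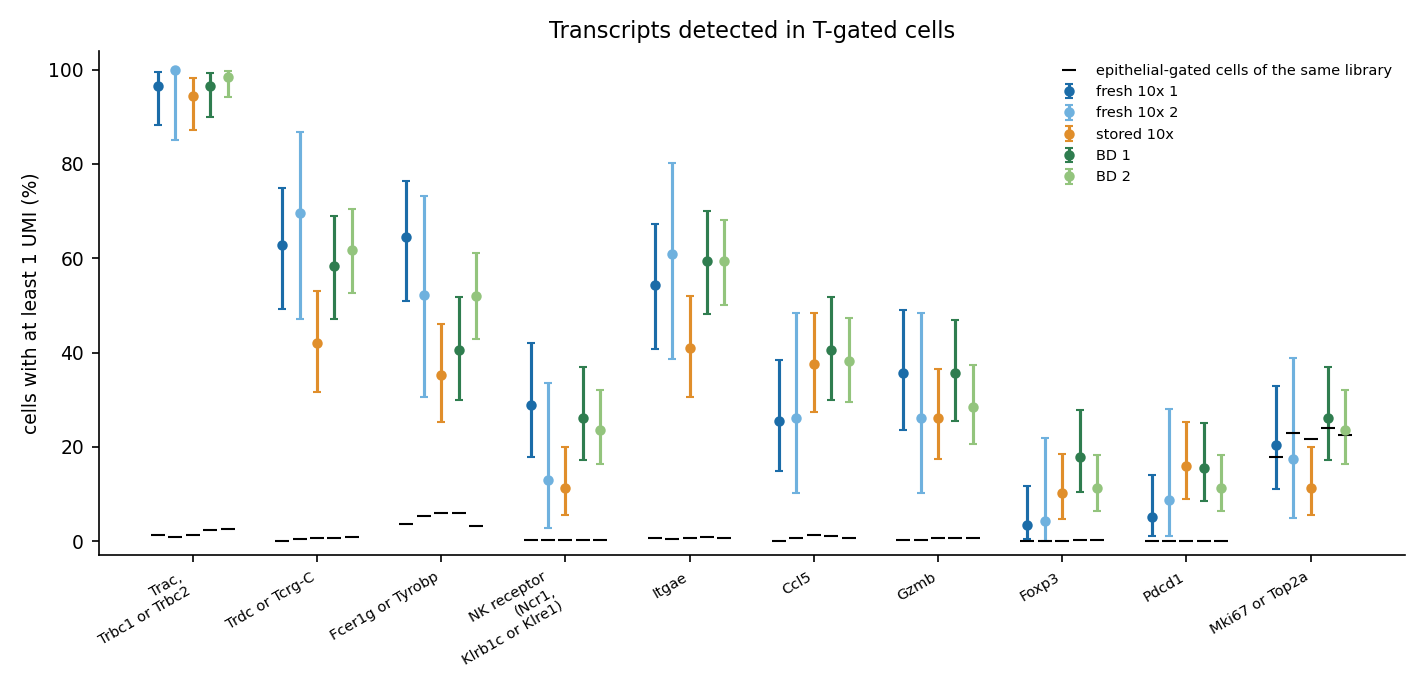
Share of T cells with at least 1 UMI of each of 10 transcript sets (y axis, percent), by library, with exact 95% binomial intervals. Black dashes give the share among epithelial-gated cells of the same library. T cell shares lie above the dashes in every library except for Mki67 or Top2a, found in 20.4% of all T cells. That share lay above in fresh 10x 1, BD 1 and BD 2 (20.3%, 26.2% and 23.6% against 17.8%, 24.0% and 22.5%). It lay below in fresh 10x 2 and stored 10x (17.4% and 11.4% against 22.9% and 21.6%). After thinning it was 7.02%, 0%, 7.95%, 13.1% and 10.6% against 5.36%, 6.01%, 5.79%, 6.05% and 6.76%, by library.

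Gamma and delta chain transcripts were common among these cells. Trdc (chr14:54142851-54146108), the delta constant region, or one of Tcrg-C1, Tcrg-C2 and Tcrg-C4, the gamma constant regions, had a UMI in 215 of 377 T cells (57.0%, 51.9 to 62.1). By library the share was 62.7%, 69.6%, 42.0%, 58.3% and 61.8%, or 45.6%, 59.1%, 28.4%, 47.6% and 48.0% after thinning, against at most 0.949% of epithelial-gated cells. Stored 10x was lowest before and after thinning. Gamma constant transcripts alone do not mark a gamma delta T cell, since alpha beta T cells can also transcribe that locus, and of the 207 cells with Tcrg-C UMIs 117 also had Trac and 95 had Trdc.

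Trac (chr14:54220521-54224198) and Trdc belong to a single locus, and rearrangement of the alpha chain deletes the delta segments between. Trac was found in 244 T cells, Trdc in 103, both in 30 and neither in 60. Of the cells with Trdc in the 10x libraries, 1 of 20, 2 of 10 and 0 of 16 also had Trac, whereas BD 1 had 10 of 22 and BD 2 had 17 of 35. Both chains were seen in the same cell in larger shares of the BD libraries, where Trac also had a higher level, 13.7 and 12.1 UMIs per 10000 against 2.49, 2.16 and 3.89 in the 10x libraries. Trdc did not show that gap, with 4.35, 5.21 and 3.93 in the 10x libraries and 3.66 and 5.68 on BD Rhapsody. Trdc without Trac was found in 5 of 126 CD8 cells (3.97%, 1.3 to 9.02), 1 of 54 CD4 cells and 67 of 195 coreceptor-negative cells (34.4%, 27.7 to 41.5).

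Other T cell states were spread unevenly. Itgae, the CD103 chain of tissue-resident T cells that binds E-cadherin on epithelium, had a UMI in 205 cells (54.4%). Foxp3 had a UMI in 41 cells, 3.39%, 4.35%, 10.2%, 17.9% and 11.4% by library, or 0%, 0%, 6.82%, 8.33% and 7.32% thinned. The checkpoint receptor gene Pdcd1 had a UMI in 46 cells. With 1 or 2 libraries a group, no test of these shares was made.

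CD8 and CD4 T cells were compared in BD 1 and BD 2, the libraries with at least 10 cells of each. CD8 cells were higher in the granzymes Gzma and Gzmb, the chemokines Ccl5 and Xcl1, the gamma chain constant regions Tcrg-C1 and Tcrg-C2 and the receptor genes Klrd1 and Klra5, and CD4 cells in the regulatory and costimulatory genes Foxp3, Il2ra, Ctla4, Tnfrsf4 and Icos. Of 3423 genes tested, 145 (4.24%) passed an adjusted p under 0.05 in edgeR's quasi-likelihood test with Benjamini-Hochberg adjustment and library as a block. CD8 cells were higher in 70 of them (2.04%) and lower in 75 (2.19%). A gene high in 1 class can pass the low-count filter through that class alone, so the counts of listed genes describe those that passed it and support no statement about a whole list. Stored 10x, with 9 CD4 cells, did not enter the fit. Coreceptor genes and CD3 genes were not counted.

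Of 17 listed cytotoxic effector genes 10 passed the low-count filter, and these 10 were called higher in CD8 cells. The other 7, Gzmc, Gzmk, Gzmm, Prf1, Ifng, Ccl3 and Ccl4, were not tested. Gzmb, a granzyme that cleaves caspases in target cells, stood at 47.1 UMIs per 10000 in CD8 cells and 0.341 in CD4 cells of stored 10x, at 53.3 and 0.565 in BD 1, and at 40.2 and 0.16 in BD 2. CD8 cells were thus high in each of these libraries and the classes did not overlap, with a log2 difference of 6.98 ± 0.42 (SE; edgeR, adjusted p = 0.000435). Ccl5, a chemokine that draws T cells and myeloid cells, stood at 59.9 and 0.341, 36.5 and 0.848, and 16.9 and 0.400 in the same order (5.38 ± 0.32, adjusted p = 0.000435). Xcl1, the chemokine that attracts cross-presenting dendritic cells, stood at 10.0 in CD8 and 0 in CD4 cells of BD 1 and at 11.3 and 0.320 in BD 2, and at 16.6 and 0 in stored 10x (6.08 ± 0.59). Nkg7, Ctsw, Fasl, Klrd1, Serpinb6b and Serpinb9 were also higher, by 5.27, 3.42, 4.04, 6.87, 3.39 and 3.80 on the log2 scale.

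Gzma, another granzyme, was concentrated in few cells. Its level was 38.0 UMIs per 10000 in CD8 cells of BD 1 and 5.36 in those of BD 2, from 3 cells in each, and 0.141 and 0 in CD4 cells, from 1 cell and 0 cells. In stored 10x it was 18.0 in CD8 cells, from 6 cells, and 0 in CD4 cells. The fitted difference was 8.12 ± 0.48 on the log2 scale (edgeR, adjusted p = 0.000435). In all T cells Gzma was found in 3, 1, 7, 5 and 4 cells of the libraries, and a single cell held from 34.8% to 100% of its UMIs. Gzmb by contrast was found in 61 of 126 CD8 cells and 7 of 54 CD4 cells.

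Of 10 listed gamma delta receptor genes 4 passed the filter, and these 4 were called higher in CD8 cells. Tcrg-C2 stood at 8.72 UMIs per 10000 in CD8 cells and 0.0706 in CD4 cells of BD 1, and at 6.82 and 0.080 in BD 2 (6.57 ± 0.46, edgeR adjusted p = 0.000861), and Tcrg-C1 at 2.91 and 3.15 in CD8 cells against 0 in CD4 cells. In stored 10x, Tcrg-C2 stood at 0.959 and Tcrg-C1 at 1.55 in CD8 cells, and both at 0 in CD4 cells. A fold against 0 has only a lower bound, here at least 27.1 from a floor of 3 counts over the CD4 cells. Of 16 listed NK receptor genes 6 passed the filter, and 5 of them were higher in CD8 cells. Fcer1g, the signalling adaptor of several killer receptors, stood at 14.2 and 0 in stored 10x, 12.1 and 0.0706 in BD 1, and 10.2 and 0.240 in BD 2 (6.13 ± 0.46, adjusted p = 0.000927). Tyrobp, Cd7 and Klrd1 differed by 4.79, 6.91 and 6.87 on the log2 scale. Klra5, an Ly49 family receptor, differed by at least 57.6-fold, with 351 UMIs in CD8 cells and 0 in CD4 cells of the BD libraries. In stored 10x Klra5 stood at 5.46 UMIs per 10000 in CD8 cells against 0.

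Of the 9 listed tissue residence genes 6 were tested, with 3 higher in CD8 cells and 0 lower. Itgae stood at 6.16 and 6.21 UMIs per 10000 in CD8 cells of BD 1 and BD 2 and at 1.13 and 1.04 in CD4 cells (2.48 ± 0.30, edgeR adjusted p = 0.00624), and at 3.76 and 0.341 in the classes of stored 10x. Rgs1, a regulator of chemokine receptor signalling, differed by 1.49, and Itga1, the CD49a chain that binds collagen, had 92 UMIs in CD8 cells and 0 in CD4 cells (at least 15.1-fold). The survival gene Bcl2 and the death gene Bcl2l11 were both higher in CD8 cells, by 2.32 and 3.66, and the death gene Pmaip1 was lower, by a log2 difference of -5.35. The other genes that led the list for CD8 cells were Pde3b, Trgv2, Abi3, Dapk2 and Ddc, each with 0 UMIs in CD4 cells and lower bounds of 8.20 to 15.2-fold, and Car2, a carbonic anhydrase, with 345 UMIs against 1.

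Of 11 listed regulatory T cell genes 10 were tested, of which 7 were lower in CD8 cells and 0 higher. Foxp3 stood at 6.57 UMIs per 10000 in CD4 cells of BD 1, 2.40 in those of BD 2 and 1.71 in those of stored 10x, and at 0 in CD8 cells of all 3 (at least 83.3-fold lower in CD8 cells over BD 1 and BD 2, edgeR adjusted p = 0.00175). By cell, Foxp3 was found in 26 of 54 CD4 cells (48.1%) and in 0 of 126 CD8 cells. Il2ra, the high-affinity IL-2 receptor chain, stood at 12.2 and 4.88 in CD4 cells and 0.0855 and 0.260 in CD8 cells of the BD libraries (-5.37 ± 0.56, adjusted p = 0.00319), and at 1.02 and 0.221 in stored 10x. Tnfrsf4, which encodes the costimulatory receptor OX40, stood at 12.7 and 4.08 in CD4 cells and had 0 UMIs in CD8 cells of BD 1 and BD 2 (at least 157-fold lower over these). In stored 10x it stood at 7.51 in CD4 cells and 0.221 in CD8 cells, the latter 3 UMIs of 1 cell. Ctla4, which competes with CD28 for its ligands, had 91 UMIs in CD4 cells and 1 in CD8 cells of the BD libraries, and its values of 4.31 and 2.40 against 0.0427 and 0 did not overlap. In stored 10x they were 2.05 and 0.148.

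Of 10 checkpoint genes tested 5 were lower in CD8 cells and 2 higher. Pdcd1, Icos and Tnfrsf18 were lower, by log2 differences of -5.55, -3.78 and -2.18, together with the listed regulatory genes Tnfrsf4 and Ctla4, while Cd160 and Cd244a were higher, with 151 UMIs against 1 and 76 against 1. Of 6 chemokine receptor genes tested Ccr8, Ccr2 and Cxcr4 were lower in CD8 cells (-4.09, -2.36 and -2.29) and 0 higher. Cxcr6, at 2.52 and 2.19 in CD8 and CD4 cells of BD 1 and 0.942 and 0.880 in BD 2, and Cxcr3, at 0.684 and 0.636 and at 0.260 and 0.240, did not pass. Lower were also the memory genes Il7r and Cd44 (-3.21 and -2.72) and Cd28, Cd2 and Cd5 of the receptor signalling list (-2.46, -1.67 and -2.53), where Thy1 was higher (1.52). Of 16 immediate early genes tested 4 were lower in CD8 cells (Nfkbia, Nr4a1, Nr4a3 and Dusp1, from -2.81 to -1.45) and 0 higher. Of 10 heat shock, 14 cell cycle and 4 interferon genes tested, 0 passed.

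Markers of other cell types moved with the CD4 class as well. Of 7 listed innate lymphoid markers the 5 that passed the filter (Il7r, Gata3, Rora, Il1rl1 and Klrg1) were called higher in CD4 cells, among them Il1rl1, the IL-33 receptor that regulatory T cells also express, at 6.29 and 3.04 UMIs per 10000 against 0 in the BD libraries, and Klrg1 at 8.41 and 6.72 against 0.128 and 0.0325. In stored 10x Il1rl1 had 2 UMIs and Klrg1 had 1 UMI in CD4 cells. H2-Ab1 and Cd74, of MHC class II presentation, were higher in CD4 cells, but H2-Ab1 came from 3 of the 25 CD4 cells of BD 2, where its level was 22.6 against 1.13 in BD 1, and in stored 10x it had 0 UMIs in CD4 cells and 1 in CD8 cells. In the other direction Cdh1, the E-cadherin gene of epithelium, was higher in CD8 cells by 3.81. It had a UMI in 16 of 33 CD8 cells of BD 1 and 22 of 42 of BD 2. Other epithelial genes did not all move with Cdh1. Krt8 and Wfdc18 stood lower in CD8 than in CD4 cells of both BD libraries. In BD 1 they stood at 0.598 against 0.848 and 3.80 against 13.5 UMIs per 10000. Epcam stood higher in CD8 cells of both, at 1.80 against 1.48 and 1.46 against 1.28, and Krt18 only in BD 1. The CD4 cells of BD 1 also included 1 cell with 5048 UMIs of Igkc and 1532 of Jchain, antibody genes of plasma cells. The part of cells of these types in the differences was not tested beyond leaving out cells rich in their markers. Izumo1r and Dusp4 completed the leading genes of the CD4 class, with 29 against 0 and 40 against 1 UMIs.

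**Figure D3:**
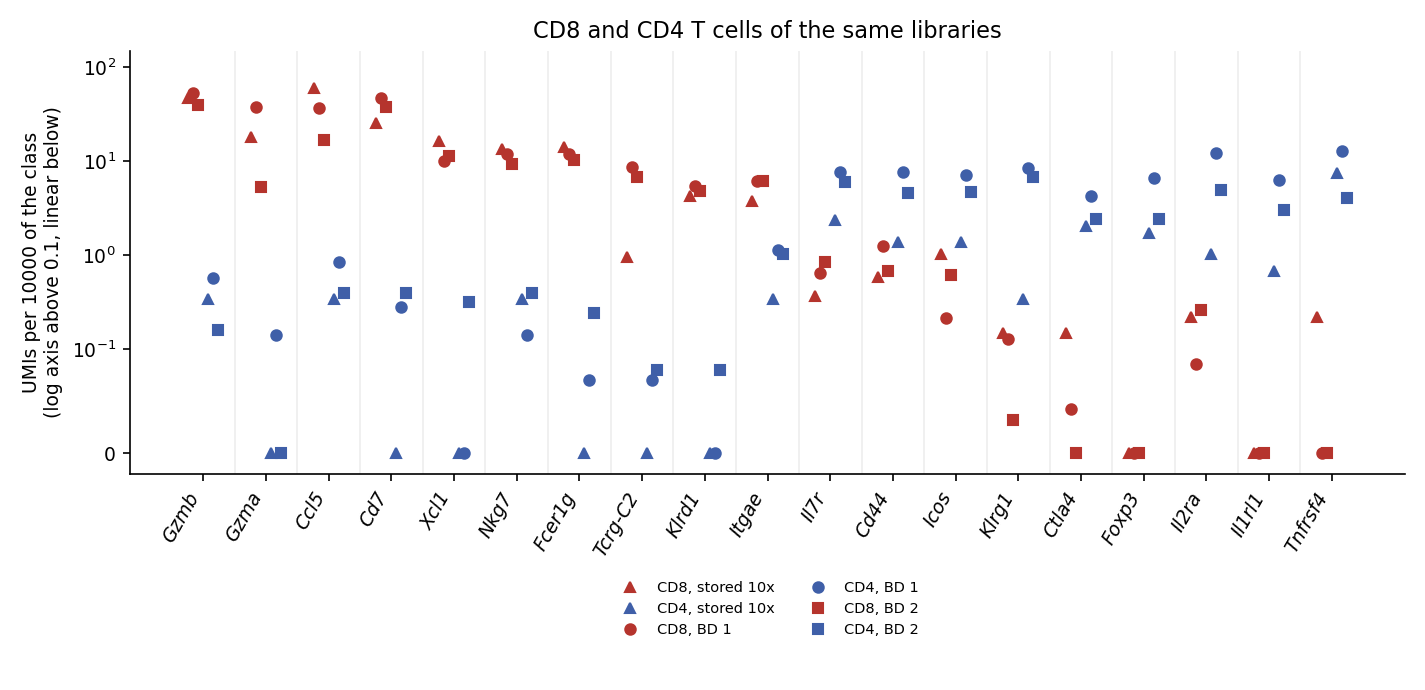
UMIs per 10000 (symmetric log axis) of 19 genes in CD8 and CD4 T cells of stored 10x, BD 1 and BD 2, 1 point per class and library. Gzmb, Ccl5 and Fcer1g are higher in CD8 cells and Foxp3, Il2ra and Tnfrsf4 in CD4 cells of each of the 3 libraries.

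With stored 10x added, 173 of 2213 genes (7.82%) passed, 95 higher (4.29%) and 78 lower (3.52%) in CD8 cells, and 108 of the 145 were among them. From stored 10x and BD 1, without BD 2, 34 of 2338 genes passed, 29 of them shared. That fit also brought in the few CD4 cells of stored 10x, so its lower count cannot be assigned to BD 2 alone. Without cells that held at least 20 UMIs of another cell type's markers 218 passed, 141 shared.

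Coreceptor-negative T cells were then compared with CD8 T cells over all 5 libraries. Ncr1, an NK receptor gene, and Trdc, the delta chain constant region, were higher in coreceptor-negative cells, and Ccl5 and Gzmb were lower. This comparison was added after the data were seen. Of 2162 genes tested 14 passed (0.648%, edgeR's quasi-likelihood test with Benjamini-Hochberg adjustment, library as a block), 12 higher (0.555%) and 2 lower (0.0925%) in coreceptor-negative cells. The class can contain CD8 and CD4 cells whose coreceptor transcript was not captured, and its median depth was below that of CD8 cells in 4 of the 5 libraries.

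Ncr1, the activating receptor NKp46 of NK and innate lymphoid cells, stood at 4.22, 1.65, 1.08, 2.92 and 1.95 UMIs per 10000 in coreceptor-negative cells of fresh 10x 1, fresh 10x 2, stored 10x, BD 1 and BD 2, and at 0, 0, 0.0738, 0.299 and 0.227 in CD8 cells. It was higher in 5 of 5 libraries (3.58 ± 0.36, edgeR adjusted p = 0.000383). In stored 10x, 1 cell held 10 of the 14 Ncr1 UMIs of all T cells. Trdc stood at 5.73, 5.84, 8.48, 11.5 and 10.9 against 1.17, 2.43, 0.664, 0.598 and 2.76 (2.81 ± 0.35, adjusted p = 0.00223), again higher in 5 of 5 libraries. Gzmb went the other way, at 8.26, 5.07, 2.58, 16.5 and 8.73 against 57.0, 39.3, 47.1, 53.3 and 40.2 (-2.63 ± 0.27, adjusted p = 0.000383). Ccl5 was lower in 5 of 5 libraries as well (-2.65 ± 0.18, adjusted p = 1.13e-05).

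The other genes higher in coreceptor-negative cells were Maf, a factor of IL-17 and helper programmes (187 UMIs against 24, adjusted p = 0.0212), and, by their log2 differences, Tmem176b (2.65), the costimulator Icos (2.37), the IL-7 receptor chain Il7r (2.30), Ccr2 (2.03), the IL-18 receptor chain Il18r1 (2.01), Gadd45b (1.70), Cd44 (1.69), Bhlhe40 (1.18) and S100a4 (1.00). Il7r was higher in 4 of the 5 libraries and lower in fresh 10x 2, at 2.43 against 3.40 UMIs per 10000. Trac stood lower without passing (-1.12, adjusted p = 0.133). By cell, an NK receptor UMI (Ncr1, Klrb1c or Klre1) was found in 59 of 195 coreceptor-negative, 21 of 126 CD8 and 0 of 54 CD4 cells. Stored 10x went the other way, with 4 of 45 coreceptor-negative and 6 of 34 CD8 cells. Over all libraries Foxp3 was found in 14 coreceptor-negative, 0 CD8 and 26 CD4 cells. The count of passing genes fell to 5 without BD 1 and to 6 without fresh 10x 1 and rose to 32 without BD 2. It was 3 without the library block and 22 without T cells with an NK receptor UMI.

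**Figure D4:**
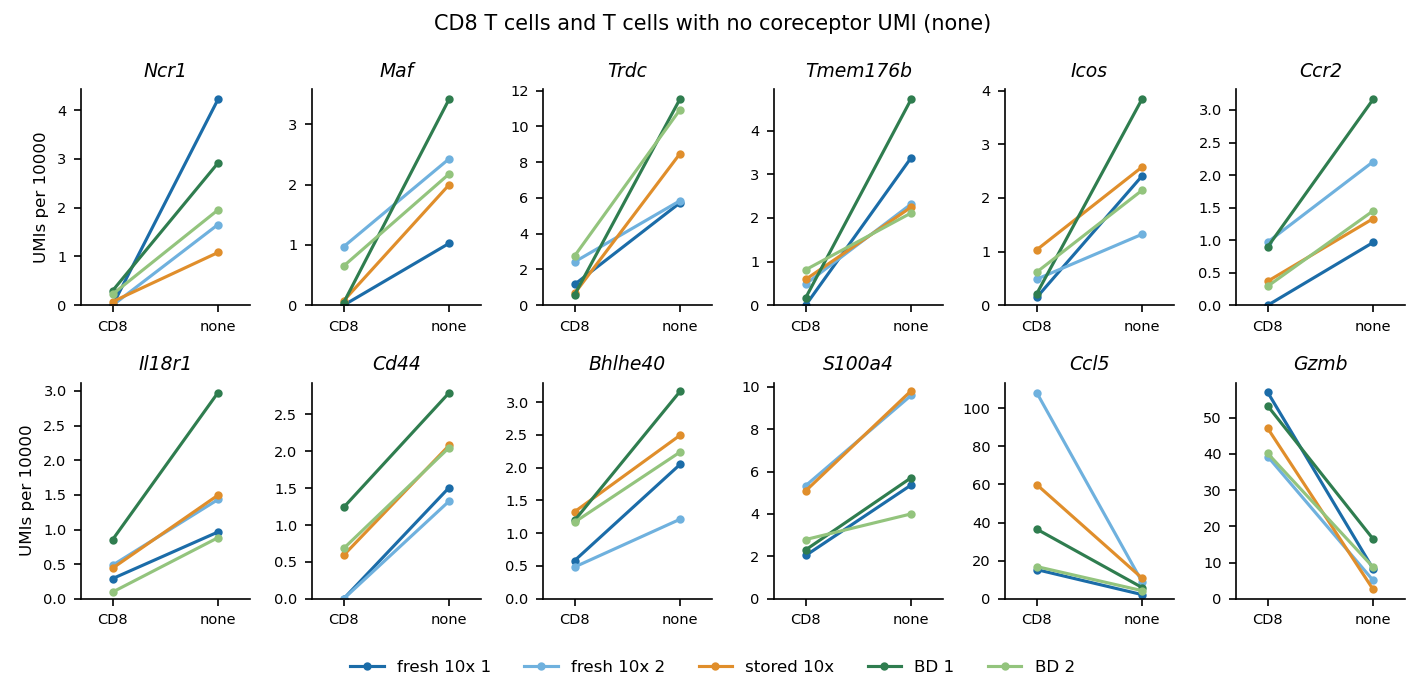
UMIs per 10000 of 12 genes in CD8 and coreceptor-negative T cells, 1 pair of points per library. In each library Ncr1 and Trdc are higher, and Gzmb and Ccl5 lower, in coreceptor-negative cells.

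T cells were set against NK-gated cells, cells of the same libraries with at least 2 UMIs of Ncr1, Klrb1c and Klre1, no CD3 UMI and the same C1q and epithelial limits. There were 12, 10, 5, 4 and 8 NK-gated cells. In the fresh 10x samples, the libraries with at least 10 of them, 0 of 1585 genes passed (0%, edgeR; 81 at an unadjusted p under 0.05, and 0 by DESeq2). With libraries of at least 3 NK-gated cells, chosen after seeing the data, all 5 libraries entered and 23 of 1550 genes passed (1.48%), 17 higher in T cells (1.1%) and 6 lower (0.387%). Gate genes were not counted.

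Trac, Trbc2, Trdc and Tcrg-C2 were higher in T cells, and Trbc1 was not. Trac stood at 2.49, 2.16, 3.89, 13.7 and 12.1 UMIs per 10000 in T cells of fresh 10x 1, fresh 10x 2, stored 10x, BD 1 and BD 2, and at 0, 0, 0, 0 and 0.523 in NK-gated cells (5.77 ± 0.52, edgeR adjusted p = 3.01e-05). Trbc2 differed less, at 10.1, 12.2, 10.3, 13.8 and 10.1 against 2.34, 3.71, 3.94, 3.25 and 0.785 (2.09 ± 0.28, adjusted p = 0.000718). Trbc1 stood at 7.44, 6.29, 6.31, 4.24 and 4.23 in T cells and at 11.1, 6.93, 11.3, 8.44 and 6.80 in NK-gated cells, so it was lower in T cells of each library, without passing the test (-0.61 ± 0.20, edgeR adjusted p = 0.26). Cd8a had 990 UMIs in T cells and 0 in NK-gated cells (at least 37.9-fold). Trdc and Tcrg-C2 were higher by 3.60 and 5.84, Tnfrsf4 by 4.96, and Plac8 had 325 UMIs against 0 (at least 12.5-fold).

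The granzyme genes Gzmb and Gzmc went in opposite directions. Gzmb stood at 22.3, 11.4, 23.5, 30.1 and 20.0 UMIs per 10000 in T cells and at 5.75, 5.18, 0, 0 and 3.66 in NK-gated cells (2.59 ± 0.52, edgeR adjusted p = 0.0169). Gzmc stood at 10.9, 0.539, 0.456, 0.947 and 0.579 in T cells and at 19.2, 37.2, 1.97, 1.95 and 13.6 in NK-gated cells. It was lower in T cells of every library (-2.99 ± 0.68, edgeR adjusted p = 0.043). The NK-gated values came from 5, 5, 1, 1 and 2 cells, with 4 UMIs in stored 10x and 3 in BD 1. Klrk1, the stress-ligand receptor NKG2D, was lower by a log2 difference of -1.79, Pglyrp1, a bacterial cell wall binding protein, by -2.13, the phosphatase gene Dusp2 by -1.75, Ugcg by -1.60 and Tmem176b by -1.35. Higher in T cells were also Klra5 (3.17), Ifi27l2a (3.37), Rgs10 (2.53), Hspa1b (2.20), Ikzf2 (1.72), Itgae (1.73), Cd7 (1.71), Jun (1.22) and Malat1 (1.04). Many of these calls did not hold under other settings: of those that tested the gene, Tmem176b lost its call in 13 of 14, Itgae and Ugcg in 11 of 14, Hspa1b in 10 of 12, Gzmc and Klrk1 in 9 of 14, and Gzmb, Ikzf2 and Jun in 8 of 14. Klra5, Dusp2 and Pglyrp1 lost it in 7 of 14, Rgs10 in 7 of 12 and Ifi27l2a in 6 of 11, and Trac, Trdc and Cd8a in 3 of 14. The number of passing genes rose to 41 without fresh 10x 2 and fell to 13 without stored 10x and 15 without fresh 10x 1.

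Storage was addressed by stored 10x against the fresh 10x samples, over all T cells. With 1 stored library the test assumes that it varies as the fresh pair does. Of 6062 genes 0 passed (0%, edgeR; 197 at an unadjusted p under 0.05, and 13 by DESeq2). Pdcd1, the gene of the checkpoint receptor PD-1, stood at 0.127 and 0.359 UMIs per 10000 in fresh and 1.65 in stored T cells (3.03 ± 0.57). It had a UMI in 3 of 59 and 2 of 23 fresh and 14 of 88 stored T cells. In stored 10x Pdcd1 had 0 UMIs in CD8 cells and 15 in CD4 cells, the latter from 3 of the 14 cells with a UMI. The other cells with a Pdcd1 UMI there were coreceptor-negative. The fresh samples held 1 and 0 CD4 cells against 9 in stored 10x, and the part of this in the Pdcd1 difference was not tested. The chaperone gene Hspa1a stood at 4.06 and 8.62 in fresh and 0.666 in stored T cells (-3.14 ± 0.63). Gzmb, at 22.3 and 11.4 in fresh and 23.5 in stored T cells, and Ccl5, at 5.96, 27.2 and 33.1, did not separate beyond the gap between the fresh samples.

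Neither Pdcd1 nor Hspa1a passed in this fit, but each passed under most of the other settings that tested it. Over 11 other settings the log2 difference ran from 1.85 to 3.52 for Pdcd1 and from -3.60 to -2.50 for Hspa1a. These settings included leaving out cells rich in another cell type's markers, and the pooled deposition of the fresh samples. Isg15 was also lower in the stored library (1.40 and 1.98 against 0.351) and Wfdc18, an epithelial marker, higher. The summed level of 8 epithelial markers in T cells was 5.67 and 7.55 UMIs per 10000 in the fresh samples and 17.5 in stored 10x, and its part in these differences was not tested.

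Platform was addressed by BD 1 against the fresh 10x samples, with the same assumption for its 1 library. Of 6062 genes 12 passed (0.198%, edgeR; 1164 at an unadjusted p under 0.05), 6 higher in BD 1 (0.099%) and 6 lower (0.099%). Of the higher genes, 4 came from single cells: 1 cell held 5048 of 5066 UMIs of Igkc, 3000 of 3044 of Igha and 1532 of 1533 of Jchain, antibody genes of plasma cells, and 1 cell held all 332 UMIs of the mast cell protease gene Mcpt4. Of the rest, mt-Nd3 of the mitochondrial respiratory chain stood at 3.09 and 3.23 UMIs per 10000 in fresh 10x and 36.3 in BD 1 (3.28 ± 0.32, adjusted p = 0.0449), and the ribosomal gene Rps10 at 49.5 and 42.0 against 1.13 (-5.58 ± 0.44, adjusted p = 0.0313). BD 2, which the fit did not use, had 49.1 and 0.644 for this pair.

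T cell genes differed in BD 1 without passing the same fit. Thy1, a surface glycoprotein of T cells, stood at 1.31, 1.26 and 1.09 UMIs per 10000 in the 10x libraries and at 12.9 and 11.9 in BD 1 and BD 2 (BD 1 against fresh 10x, 3.07 ± 0.38, edgeR adjusted p = 0.0698). For Trac the difference was 2.30 ± 0.37 (adjusted p = 0.0901) and for the nuclear RNA Malat1 -2.71 ± 0.38 (adjusted p = 0.0742). All 3 passed when BD 2 was grouped with BD 1 by its title, with 773 genes in all, and also without cells rich in another cell type's markers, with 901. The gene name lists of the platforms' files differ, and the part of annotation in these differences was not tested.

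A small share of T cells carried many transcripts of another cell type. With at least 20 UMIs of the marker list of a B, myeloid, epithelial, stromal or red cell, 22 of 377 T cells stood out (5.84%, 3.69 to 8.70): 1, 2, 1, 5 and 13 by library. Their median depth was 20438, 15319, 12077, 10923 and 13412 UMIs against 3236, 3746, 2391, 5176 and 4308 in the other T cells, and 19 of the 22 had Trac or Trbc. The limit is an absolute number of UMIs, which a deep cell reaches more easily, so the choice of cells in part fixes this difference in depth. Doublets were not called otherwise. In fresh 10x 1, 1 cell held 1040 of 1078 fibroblast marker UMIs, in fresh 10x 2, 2 cells held 545 and 518 of 1066 dendritic marker UMIs, and in BD 2, 2 cells held 958 and 849 of 1913. The summed dendritic level of 95.8 UMIs per 10000 in T cells of fresh 10x 2 thus rested on 2 of its 23 T cells. Neutrophil markers reached at most 0.105 UMIs per 10000 in T cells of any library and red cell markers 0.421.

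**Figure D5:**
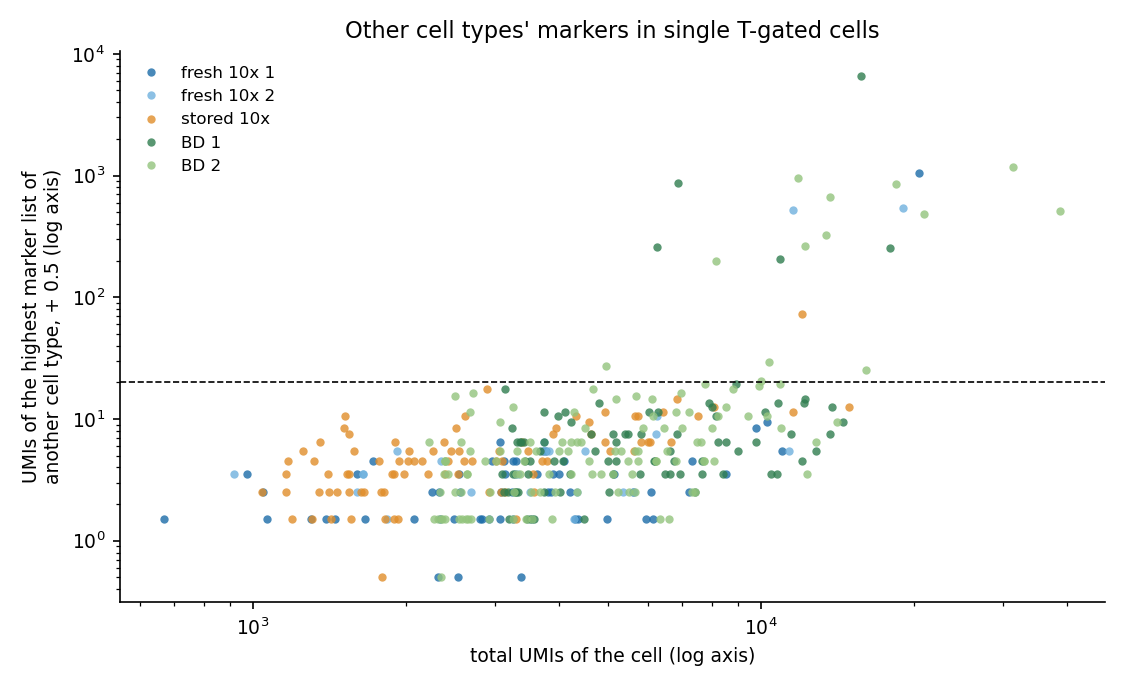
Total UMIs of each T cell (x axis, log) against its UMIs of the highest marker list of another cell type plus 0.5 (y axis, log), coloured by library. The dashed line marks 20 UMIs, and the 22 cells on or above it are deeper at the median than the other T cells of their library, as an absolute limit favours.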

How the data were processed

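The authors deposited raw UMI counts per gene and cell for each library. Cell Ranger 3.0.1 and the build mm10 are named in the submitters' processing notes, without a role, and the counting program for BD Rhapsody is not given in the sources used here. Of 8 deposited matrices 5 were used. The gate, the gene lists and the members named were chosen with earlier results of these data known.

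Counts were summed per library and class, and tested in edgeR 4.0.16 (R 4.3.3) by the quasi-likelihood test with TMM scaling, its filter on low counts and Benjamini-Hochberg adjustment over all genes tested, at an adjusted p of 0.05. CD8 against CD4 and T against NK-gated sums had library as a block and needed 10 cells of each class. Genes used by a gate were not counted. The script was tested on simulated data. An SE after ± is the size of the log2 difference divided by the square root of edgeR's F statistic. That statistic is moderated across genes, so the SE is not a spread measured for the gene alone. DESeq2 1.42.0 was an alternative. Levels are UMIs per 10000 UMIs of the class, so genes that differ in transcript capture are not compared with each other. Genes named are, for each direction, the 10 (between classes) or 5 (between libraries) with the largest change among those called with at least 20 UMIs, genes of the lists that passed, and others chosen after their values were seen: in the storage and platform comparisons Pdcd1, Hspa1a, Isg15, Wfdc18, Gzmb, Ccl5, Thy1, Trac and Malat1, and Gadd45b and Trac for coreceptor-negative cells. Intervals are exact binomial (Clopper-Pearson) at 95%. For fresh 10x and BD 1, samples with the same number did not deviate together (correlation -0.0555 over 6062 genes), so the numbers were not used as pairs.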

Additional observations from a re-analysis of the deposited data

How the results depend on the processing

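Counts of passing genes depended on the settings, with few libraries per group. CD8 against CD4 cells, 145 genes: DESeq2 gave 62, no filter on low counts 362, a minimum of 1000 UMIs and a mitochondrial share of up to 20% gave 95, at least 3 CD3 UMIs 307, and no T cells over 3 times the median depth 285. T against NK-gated cells, 0 genes: these settings gave 0, 61, 0, 14 and 19. Stored against fresh 10x, 0 genes: they gave 13, 56, 0, 33 and 45. BD 1 against fresh 10x, 12 genes: they gave 137, 549, 0, 780 and 888. Coreceptor-negative against CD8 cells, 14 genes: no filter gave 125 and no deep cells 26. The cause of these shifts was not tested.

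Settings added after seeing the data follow. Without T cells with NK receptor UMIs, 248 genes passed for CD8 against CD4, 22 for stored, 554 for BD 1 and 22 for coreceptor-negative cells. Without cells rich in another type's markers the counts were 218, 35, 901 and 44, and 25 for T against NK-gated cells. T against NK-gated cells gave 23 with at least 3 cells per class and 20 with at least 3 NK receptor UMIs too. At least 10 cells per class gave 22 for coreceptor-negative cells, and T cells with Trac or Trbc gave 112 for BD 1. The planned setting of 3 NK receptor UMIs with 10 cells per class could not be fitted. The pooled fresh 10x matrix, a planned setting, gave 92 for stored and 894 for BD 1.

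Leaving out 1 library gave 34 to 145 genes for CD8 against CD4, 13 to 41 for T against NK-gated cells (15 without fresh 10x 1, 41 without fresh 10x 2, 13 without stored 10x, 21 without BD 1 and 22 without BD 2), 5 to 32 for coreceptor-negative cells and, with BD 2 grouped with BD 1, 249 to 700 for the platform. Leaving out a fresh 10x sample in the storage comparison leaves no residual degrees of freedom, so only ratios per gene were computed. Without the library block 105, 3 and 3 genes passed for CD8 against CD4, T against NK-gated and coreceptor-negative cells. Grouping BD 2 with BD 1 by title gave 773, and 1088 with the replicate number as a block, although it is not known whether the numbers pair these samples.

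Shares moved beyond their intervals when thinned to 1000 UMIs: the stored 10x T cells to 1.65%, those of BD 1 to 1.33% and those of BD 2 to 1.94%, and CD8 cells among coreceptor-positive cells to 100% in fresh 10x 1. With at least 2 coreceptor UMIs the CD8 share was 100% in fresh 10x 1 and 96.4% in stored 10x.

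Direction changed for 5 genes, none of which passed the test as reported. In the comparison of CD8 with CD4 cells Cxcr3, at 0.09, was -0.030 with at least 3 CD3 UMIs. In the storage comparison the log2 difference of Trdc was -0.21, and 0.13 without T cells with NK receptor UMIs. In the platform comparison Gzmb, at 0.57, was -0.48 without those cells and -0.14 without fresh 10x 2 and with BD 2 grouped with BD 1. With the same samples left out and grouped, Ccl5, at -0.12, was 0.82, and its ratio of BD 1 to fresh 10x 1 alone was 1.55 on the log2 scale. That ratio was 0.39 for Jun, at -0.64. Under other settings of the platform comparison Gzmb passed edgeR's test at 1.09 (adjusted p = 0.00155, without T cells over 3 times the median depth) and 0.82 (adjusted p = 0.00305, pooled fresh matrix). Jun passed at -1.25 (adjusted p = 0.0041, without cells rich in other markers), and also without fresh 10x 1 and with BD 2 grouped with BD 1. The cause was not tested. The other genes followed through these settings kept their direction.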
